A study of Mus musculus with 10 samples.

Results

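The 10 genes described here encode proteins that remove peroxide and superoxide or serve those that do, and their RNA was measured in mouse platelets. They are the glutathione peroxidases Gpx1 and Gpx4, the peroxiredoxins Prdx1, Prdx2, Prdx5 and Prdx6, the sulfiredoxin Srxn1, the thioredoxin Txn1, the superoxide dismutase Sod1 and the catalase Cat. They were taken by symbol from the deposited count table and are 10 of its 23420 gene rows. Platelets are blood cells without a nucleus that bud from megakaryocytes. They were sorted by flow cytometry from adult mouse blood into 5 Tomato+ and 5 Tomato- libraries, and complementary DNA of their polyadenylated RNA was sequenced. Tomato is a red fluorescent protein. The sources used here do not give the gene or promoter that drives it, the strain or the exact age, and neither group is labelled with a further treatment. The question here is whether these transcripts differ with the reporter. Nothing in the labels says that replicates are separate animals, so p-values cover only library-to-library spread, possibly technical.

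Aerobic cells make superoxide and hydrogen peroxide, which superoxide dismutase, catalase and the thiol and selenol peroxidases remove. Glutathione peroxidases and catalase break down peroxide, peroxiredoxins do so with a reactive cysteine, thioredoxin re-reduces most peroxiredoxins, and sulfiredoxin repairs peroxiredoxins whose cysteine was over-oxidised. In platelets, peroxide is made on stimulation and acts on activation signalling, and a platelet can replace its enzymes only from the RNA it received from the megakaryocyte.

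Total counts ran from 5411417 to 16179973 per library, and 807 to 2450 genes had a count. Replicates 1, 2 and 5 of Tomato- had 902, 978 and 807 such genes and every other library had at least 1118. For the 10 genes and their sum, values are therefore also given without these 3 libraries. Of 4692 genes with a count anywhere, 264 (5.63%) had one in every library. Sample numbers in the titles run through the Tomato+ libraries first and then the Tomato- libraries, so order and group cannot be told apart. All 12 platelet markers had counts in all 10 libraries, with 47282 to 64457 CPM (counts per 1000000 counts of the library) in sum in Tomato+ and 53083 to 67508 CPM in Tomato-. Of the markers of other blood cells, 10 of 11 neutrophil, 5 of 9 monocyte and macrophage, 4 of 6 B cell and 7 of 8 T and NK cell genes were at 0 in all libraries, among them the defining genes Csf1r, Cd79a, Cd3e, S100a8 and Mpo. The others, apart from Lyz2, were counted in 1 or 2 libraries each, with at most 239.8 CPM (S100a9). Lyz2, a lysozyme gene of monocytes and neutrophils, had 5881 to 9029 CPM. Of 6 endothelial markers, only 2 were at 0 in all libraries. Pecam1 and Tie1 were each counted in 9 libraries, at up to 1667 and 240 CPM.

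Regulatory sequence is shown for Srxn1 and Prdx1, because their upstream regions share a motif while their RNA levels lay far apart. Both genes are textbook targets of the stress-activated factor NRF2, and the megakaryocyte factor NF-E2 binds related sites. These stretches come from RefSeq promoter windows of GRCm38.p6, lie upstream of the RefSeq transcription start and are written 5′ to 3′ on the plus strand, which is the strand of both genes. Capitals mark each match to TGANTCA, the core bound by NF-E2 and AP-1 factors.

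Srxn1, chr2:152105409-152105504, 115 to 20 bases upstream of the start: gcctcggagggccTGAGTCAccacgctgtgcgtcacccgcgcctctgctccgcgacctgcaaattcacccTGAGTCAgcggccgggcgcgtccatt
Prdx1, chr4:116685354-116685483, 245 to 116 bases upstream of the start: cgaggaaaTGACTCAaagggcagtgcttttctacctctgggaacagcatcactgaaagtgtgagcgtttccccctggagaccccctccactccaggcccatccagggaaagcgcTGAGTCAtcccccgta

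Each stretch held 2 matches to TGANTCA, searched on both strands in the 250 bases upstream of the start. Of 27025 genes with a window, 7.82% held at least 1 match and 0.385% held 2 or more. Windows were matched for 9 of the 10 genes, all but Prdx6, and no other gene among the 9 held a match. The longer NRF2 element core TGACNNNGC, found in 11.5% of genes, was present in Prdx1, where it overlaps the match nearer the start, and in Sod1. Srxn1 had no match to these letters, but its TGAGTCAGC nearer the start differs from them only by G in place of C. The GATA word AGATAA (11.4% of genes) was found in none of the 9, CCAAT (37.5%) in Gpx4, Sod1 and Cat, and GGGCGG (35.4%) in all of the 9 but Gpx1 and Prdx2. Such matches are descriptions of letters and were not tested as binding sites. Srxn1 had counts in all 10 libraries and Prdx1 in 3.

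Together the 10 genes took 0.933 ± 0.0993% of the counts of a Tomato+ library and 1.11 ± 0.153% of those of a Tomato- library (mean ± SD, n = 5 each). Gpx1, Gpx4, Prdx6, Srxn1 and Cat were counted in every library, Prdx5 and Sod1 in 9, Prdx1 and Txn1 in 3, and Prdx2 in 2. In sum the genes had 11035, 8913, 8803, 9335 and 8565 CPM in Tomato+ replicates 1 to 5, and 12442, 12845, 9215, 10462 and 10322 CPM in Tomato- replicates 1 to 5. The 2 groups overlapped, with means of 9330 ± 993 and 11057 ± 1533 CPM. Without Prdx6, the difference in the means was -126 CPM in place of -1727 CPM, and with TMM effective library sizes the difference of the whole sum was -46.4 CPM. Without the 3 Tomato- libraries with under 1000 detected genes, the Tomato- mean was 9839 CPM. No p is given for this sum, since its members were chosen with earlier results of these data known.

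**Figure D1:**
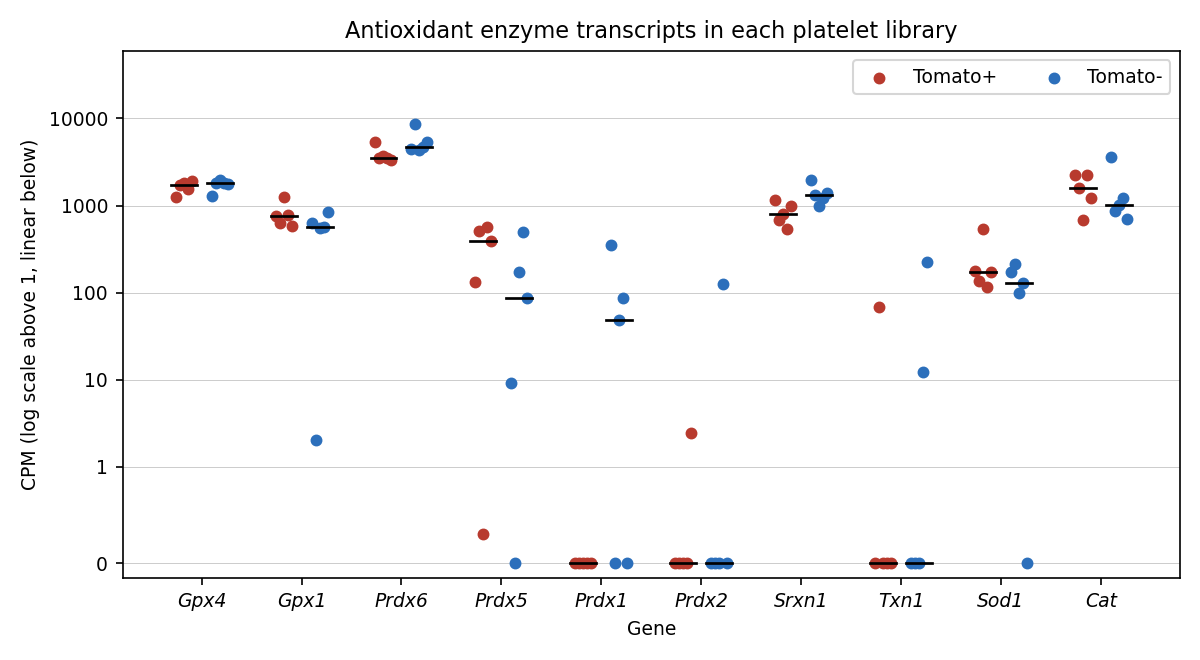
Level of each of the 10 genes in each library, in CPM on a scale that is logarithmic above 1 and linear below it; points are libraries (red Tomato+, blue Tomato-, n = 5 each) and black lines are group medians. Gpx4, Prdx6, Srxn1 and Cat stayed above 541 CPM in all 10 libraries, whereas Prdx1, Prdx2 and Txn1 were at 0 in most.

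Prdx6, the peroxiredoxin that also reduces phospholipid peroxides and uses glutathione, took the most counts of the 10 (chromosome 1, 161240112 to 161251219, minus strand, GRCm38). It ranked 29 of 4692 genes by mean CPM. Its 5 Tomato+ libraries had 5313, 3561, 3741, 3554 and 3319 CPM, and its 5 Tomato- libraries had 4409, 8645, 4374, 4755 and 5313 CPM. All Tomato- values lay above 4 of the 5 Tomato+ values, and Tomato+ replicate 1 fell within the Tomato- range. The log2 fold change, Tomato+ over Tomato-, was -0.24 (SE 0.23, 95% interval -0.73 to 0.24), and the gene did not pass in edgeR's quasi-likelihood test (adjusted p = 0.9996). With scaling by total counts in place of TMM (edgeR's trimmed-mean factors) it was -0.50. It was -0.12 without Tomato- replicate 2, the library with the highest value, and -0.37 without Tomato+ replicate 1. The retrocopy Prdx6b had 2 to 16 counts per library, against at least 24341 for Prdx6.

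Gpx4, the selenoenzyme that reduces lipid hydroperoxides within membranes (chromosome 10, 80047166 to 80056439, plus strand), was the steadiest of the 10. Libraries of Tomato+ had 1258, 1721, 1810, 1531 and 1911 CPM and those of Tomato- 1273, 1803, 1989, 1831 and 1756 CPM, with nearly the same range in both groups. Its coefficient of variation over all libraries, 14.99%, was the 11th lowest among 225 genes with 10 counts or more in every library, whose median was 43.3%. The log2 fold change was 0.15 (SE 0.38, 95% interval -0.65 to 0.96), and edgeR gave an adjusted p of 0.9996. It turned to -0.072 with scaling by total counts and to -0.15 without the 3 libraries with few detected genes. Leaving out Tomato- replicate 1 gave 0.069, and leaving out Tomato+ replicate 1 gave 0.26. The interval of the main fit leaves out a Tomato+ level more than 1.94-fold higher or 1.57-fold lower.

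Gpx1, the cytosolic selenoenzyme that reduces hydrogen peroxide with glutathione, lies in 1 merged exon block on chromosome 9 (108338903 to 108340343, plus strand). It had 764, 627, 1245, 777 and 576 CPM in Tomato+ libraries and 629, 2.001, 550, 568 and 838 CPM in Tomato- libraries. One value stands far below the rest: Tomato- replicate 2 held 16 reads of Gpx1 among 7994939 counts, though it had the highest Prdx6 level of any library. The log2 fold change was 0.81 (SE 1.08) in edgeR and 0.53 without that library, and neither passed (adjusted p = 0.9996 in the main fit). Without the 3 libraries with under 1000 detected genes, the 2 remaining Tomato- values were 550 and 568 CPM, beside 576 CPM in the lowest Tomato+ library. The log2 fold change of that fit was 0.59 (SE 0.85, edgeR adjusted p = 0.999997), so Gpx1 did not pass there either.

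Cat encodes catalase, the haem enzyme of peroxisomes (chromosome 2, 103453849 to 103485160, minus strand). Tomato+ libraries had 2235, 1603, 674, 2243 and 1216 CPM and Tomato- libraries 3625, 864, 1007, 1234 and 700 CPM. The highest and the second lowest of all 10 values were both Tomato-, and the groups overlapped from 700 to 2243 CPM. The log2 fold change was 0.32 (SE 0.53, adjusted p = 0.9996 in edgeR). It was 0.94 without Tomato- replicate 1, whose removal lowered the Tomato- mean from 1486 to 951 CPM. It was 0.52 without Tomato+ replicate 3, and between 0.093 and 0.17 without Tomato- replicate 2, Tomato- replicate 5, Tomato+ replicate 4 or Tomato+ replicate 1. Without Tomato- replicate 3 it was 0.22.

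Srxn1 encodes sulfiredoxin, which uses ATP to repair over-oxidised peroxiredoxins (chromosome 2, 152105516 to 152111376, plus strand). Its values were 1157, 686, 797, 541 and 975 CPM in Tomato+ and 1977, 1319, 976, 1225 and 1405 CPM in Tomato-. Of the 5 Tomato- libraries, 4 lay above every Tomato+ library, and replicate 3 lay within the Tomato+ range. The difference did not pass in edgeR (log2 fold change -0.49, SE 0.53, adjusted p = 0.9996), nor in the fit limited to the 225 genes that reached 10 counts throughout (-0.67, SE 0.34, edgeR adjusted p = 0.618). In that fit 0 of 5 antioxidant genes had an unadjusted p under 0.05, against 5.78% of the 225. Without the 3 libraries with under 1000 detected genes, the Tomato- mean was 1101 ± 176 CPM (n = 2) beside 831 ± 241 CPM (n = 5) in Tomato+, and the log2 fold change was -0.39.

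Prdx5 encodes a peroxiredoxin of mitochondria, peroxisomes and cytosol (chromosome 19, 6906697 to 6910106, minus strand). It had 133, 512, 0.307, 573 and 393 CPM in Tomato+ libraries and 9.07, 0, 171, 494 and 85.6 CPM in Tomato- libraries. The 4 Tomato- libraries with counts spread over nearly the same range as Tomato+. The low values fell mainly in libraries with few detected genes: 0 CPM in Tomato- replicate 2 with 978, 9.07 in Tomato- replicate 1 with 902, and 0.307 in Tomato+ replicate 3 with 1118. Tomato- replicate 5, with 807, nevertheless had 85.6 CPM. The fitted log2 fold change of 1.13 (SE 2.09, edgeR adjusted p = 0.9996) was -0.066 when Tomato- replicates 1, 2 and 5 were left out and 2.47 without Tomato- replicate 4 alone. Of its merged exons, 19.1% overlap Trmt112 on the other strand, a gene with 0 counts in all libraries.

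Sod1, the cytosolic copper-zinc superoxide dismutase that turns superoxide into peroxide (chromosome 16, 90220754 to 90226329, plus strand), had 176, 135, 535, 115 and 173 CPM in Tomato+ and 170, 212, 99.9, 128 and 0 CPM in Tomato-. Apart from Tomato+ replicate 3 at the top and Tomato- replicate 5 at 0, the other 8 libraries lay between 99.9 and 212 CPM. Tomato- replicate 5 was the library with the smallest total and the fewest detected genes, and 0 counts there allow up to 0.554 CPM (3 counts; counting error only). The log2 fold change was 1.15 (SE 1.92, edgeR adjusted p = 0.9996), and without Tomato+ replicate 3 it was 0.54. Sod1 and Prdx5 were both counted in all 5 Tomato+ and in 4 Tomato- libraries, and 4.99% of the 4692 genes had counts in all 5 Tomato+ libraries and in fewer Tomato- libraries.

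Txn1, Prdx1 and Prdx2, the thioredoxin and the typical cytosolic peroxiredoxins that depend on it, were absent from most libraries. They did not reach the default expression filter in the fit of all 10 libraries. Without the 3 libraries with under 1000 detected genes, which leaves 2 Tomato- libraries, all 3 genes reached it and none was called. Their log2 fold changes there were 1.09 (SE 4.68), -12.6 (SE 4.96) and -6.92 (SE 4.55). Txn1 (chromosome 4, 57943373 to 57956411, minus strand) had 68.2 CPM in Tomato+ replicate 2, and 12.4 and 224 CPM in Tomato- replicates 4 and 5, with 0 in the other 7. Prdx1 (chromosome 4, 116685544 to 116700822, plus strand) had 350, 48.2 and 87.4 CPM in Tomato- replicates 1, 3 and 4 and 0 counts in all 5 Tomato+ libraries, where counting error alone allows up to 0.185 to 0.461 CPM. Libraries of 1 group differed by far more than counting error (Gpx1 in Tomato-, 2.001 to 838 CPM).

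Of 4692 genes with a count, 9 (0.192%) had counts in 3 or more Tomato- libraries and in no Tomato+ library, and 0.938% showed the mirror pattern. This criterion is the pattern of Prdx1 itself, so the share is a description and no test. The 4692 also include genes counted in fewer than 3 libraries, which cannot meet it. With no expression filter, edgeR gave Prdx1 an unadjusted p of 0.0144 and an adjusted p of 0.128. In that fit 37.6% of 4692 genes had an unadjusted p under 0.05. Without the 3 libraries with under 1000 detected genes, edgeR with the default filter gave Prdx1 an unadjusted p of 0.0131 (adjusted p = 0.784). There 3.15% of 2157 genes had an unadjusted p under 0.05. Prdx1 passed that filter through the 2 remaining Tomato- libraries alone, so this p is likewise a description and no test. The Tomato- mean of Prdx1, 97.0 CPM, was 33.9 CPM without replicate 1.

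Prdx2 is a major protein of red cells (chromosome 8, 84969587 to 84974834, plus strand), and it had counts in 1 library of each group, 126 CPM in Tomato- replicate 4 and 2.44 CPM in Tomato+ replicate 5. In each group this was the library with the highest level of the haemoglobin row Beta-s, 3257 CPM in Tomato- replicate 4 (44.2 to 696 CPM in the other Tomato- libraries) and 338 CPM in Tomato+ replicate 5 (1.38 to 178 CPM in the others). Over the 13 red cell markers in the table, 7 had a count anywhere, and their sum was 1045 to 1805 CPM in Tomato+ and 47.9 to 4723 CPM in Tomato-, with Hba-a1, Hba-a2, Slc4a1 and the band 4.2 gene at 0 throughout. The same libraries also had the most detected genes of their groups, 2430 in Tomato- replicate 4 and 2450 in Tomato+ replicate 5. The part of red cell RNA or of detection in the Prdx2 counts was not tested. In such sorted but bulk samples, fewer cells of a type and less RNA per cell cannot be told apart. Junb overlaps 5.67% of the Prdx2 exons on the other strand and was counted in Tomato- replicate 4 alone, at 63.1 CPM.

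**Figure D2:**
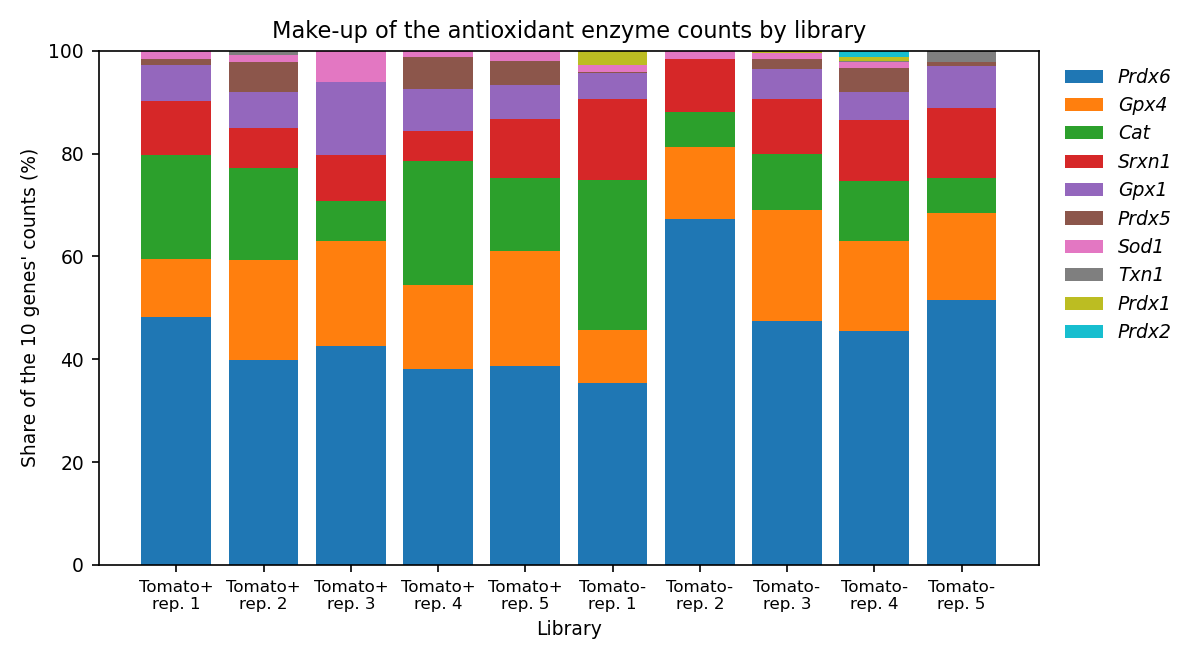
Share of the summed counts of the 10 genes that each gene took, in percent, 1 stacked bar per library. Prdx6 took from 35.4% (Tomato- replicate 1) to 67.3% (Tomato- replicate 2), and Prdx6, Gpx4, Cat, Srxn1 and Gpx1 made up most of every bar.

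No difference between Tomato+ and Tomato- platelets in these genes passed the test against the spread between libraries. Of the 10, 7 passed the filter and 0 were called by edgeR at an adjusted p under 0.05, where 0 of all 1016 genes tested were called (0%). At an unadjusted p under 0.05 there were again 0 of the 7, against 9 of 1016 genes (0.886%). The CPM ranges of the groups overlapped for each of the 10, and they did not overlap for 6 of the 1016 tested genes (0.591%). Of the 7, Gpx1, Gpx4, Prdx5, Sod1 and Cat had a positive estimate and Prdx6 and Srxn1 a negative one, with a median of 0.32 beside 0.21 over all genes tested. With scaling by total counts the median over all tested genes was -0.028, and the 7 split into 4 positive and 3 negative estimates. Under that scaling Prdx6 had an unadjusted p of 0.0489 in edgeR, as 1.08% of all tested genes did at that level, and its adjusted p was 0.999977.

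Precision differed widely among the 7. The 95% interval of Prdx6 spanned from 1.65-fold lower to 1.18-fold higher in Tomato+, so a 2-fold difference lay outside it, and the same held for Gpx4. For Srxn1 the interval reached 3.06-fold lower, for Cat 2.74-fold higher and for Gpx1 8.51-fold higher. Those of Prdx5 and Sod1 reached 47.1-fold and 37.5-fold higher, so these libraries set almost no limit on a change of either gene.

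**Figure D3:**
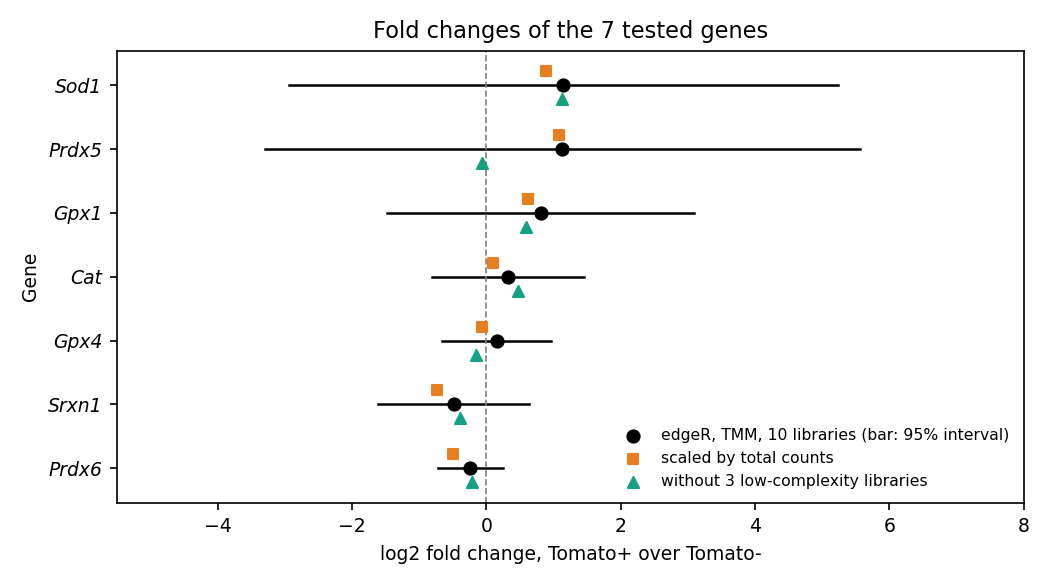
Log2 fold change, Tomato+ over Tomato-, of the 7 tested genes: black points with bars are the edgeR estimates with 95% intervals, orange squares the estimates with scaling by total counts, and green triangles those without the 3 Tomato- libraries with under 1000 detected genes. All 7 intervals include 0, and only Gpx4 and Prdx5 change sign between the 3 sets of points.

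Per kilobase of merged exons (GENCODE M21), the mean levels ran from Gpx4 (979 ± 147 CPM per kilobase over 10 libraries) and Prdx6 (978 ± 325) through Cat (589 ± 355), Gpx1 (456 ± 215) and Srxn1 (392 ± 146) to Prdx5 (111 ± 108), Sod1 (44.0 ± 35.1), Txn1 (29.0 ± 67.8), Prdx1 (15.9 ± 36.1) and Prdx2 (4.22 ± 13.1). No neighbours in this order had separate ranges. Gpx4 exceeded Prdx6 in 6 of 10 libraries, and Srxn1 exceeded Prdx5 in 9 of 10. With the length of the principal transcript instead, an alternative chosen after seeing the data, Prdx6 led with 1968 ± 654 CPM per kilobase, Gpx4 followed with 1761 ± 264, and Sod1 (272 ± 217) moved above Prdx5 (188 ± 183). Gpx1 and Cat, at 613 ± 288 and 589 ± 355, also changed places. The glutathione-dependent Gpx4, Prdx6 and Gpx1, together with Cat and Srxn1, were the 5 highest by either length, and Txn1, Prdx1 and Prdx2 the 3 lowest.

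The 5 genes counted everywhere did not share 1 profile over the libraries. Likeness was measured as the mean absolute difference of log2(CPM + 1), after each gene's own mean was subtracted, over 10 libraries and against the other 224 genes with 10 counts in every library; the measure favours steady genes as partners of steady genes. Prdx6 and Srxn1 were the closest pair among the 5, at 0.34, while Gpx4 and Cat differed by 0.82. Gpx4 was closest to 1810058I24Rik (0.15) and Ctla2a (0.17), where the median over all 224 was 0.54. Prdx6 was closest to Nptn (0.19) and Rap1b (0.20), Srxn1 to Ywhah (0.25) and Ptgs1 (0.28), and Cat to Clec1b (0.41) and I830077J02Rik (0.42). For Gpx1, with its 1 low library, Pfdn5 (0.73) and Ypel5 (0.82) were closest.

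The wider antioxidant system was described by 156 listed genes in 8 groups, of which 72 had a count in any library, 5 had one in every library and 24 were tested. Over the whole table these counts were 4692, 264 and 1016 of 23420 rows. In edgeR 0 of the 24 were called in either direction, 18 had a positive and 6 a negative estimate, and the median log2 fold change was 0.61 beside 0.21 over all genes tested. At an unadjusted p under 0.05 there were also 0.

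Among other members of the same families, 3 of 11 had a count. Prdx3, the mitochondrial peroxiredoxin, was counted in 5 libraries (98.7 ± 129 and 47.9 ± 65.7 CPM in Tomato+ and Tomato-), Prdx4, that of the endoplasmic reticulum, in 2 Tomato- libraries (0 to 40.9 CPM), and Sod2, the mitochondrial dismutase, and Gpx3, the plasma glutathione peroxidase, in none. Of the partners of Txn1, Txnrd1, the cytosolic thioredoxin reductase, had 1 count in 1 library, and Txnrd2, the mitochondrial one, had 0. Of 17 listed thioredoxin genes 9 had a count and 1 was tested, the splicing factor gene Txnl4a (278 ± 289 and 87.1 ± 120 CPM). Txndc17 and Txndc11 were each counted in 1 Tomato- library, at 374 and 292 CPM. Txnrd1, Txnrd2, Sod2 and Gpx3 are named for their place in the pathway, after their values were seen.

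Among genes that make and recycle glutathione, Gclm, the modifier subunit of the rate-limiting enzyme of glutathione synthesis, had counts in all libraries, with 618 ± 267 CPM in Tomato+ and 523 ± 318 CPM in Tomato-, where replicate 5 had 8.69 CPM. Esd, an esterase that acts on S-formylglutathione, had 1759 ± 368 and 1140 ± 519 CPM and a log2 fold change of 0.77 (SE 0.48, edgeR adjusted p = 0.9996). Gsr, glutathione reductase, was counted in 7 libraries, with 255 ± 247 and 635 ± 1150 CPM, the latter led by 2670 CPM in Tomato- replicate 5. Of the 41 listed genes 16 had a count, 6 were tested, and 4 of these had a positive estimate.

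NADPH, the reductant behind both the glutathione and the thioredoxin route, is made largely in the pentose phosphate pathway. Its transaldolase Taldo1 had 3900 ± 1485 and 4335 ± 1842 CPM, with a log2 fold change of 0.073 (SE 0.33, edgeR adjusted p = 0.9996). Pgd was counted in 6 libraries (205 ± 347 and 219 ± 388 CPM) and the NAD kinase Nadk2 in 5 (79.5 ± 125 and 122 ± 193 CPM). Of 18 genes in this group 4 were tested, 3 with a positive estimate.

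Of 19 genes of the NRF2 axis 13 had a count, none in all libraries, and 3 were tested, all with positive estimates (median 0.88). The highest mean CPM belonged to Sqstm1, an autophagy receptor (146 ± 193 and 70.7 ± 96.9 CPM), Rbx1, a ubiquitin ligase subunit (63.3 ± 53.9 and 54.1 ± 72.9 CPM), and Mafg, a small MAF partner of NRF2 and NF-E2 (40.5 ± 56.1 and 22.9 ± 47.4 CPM). Nfe2l2, which encodes NRF2 itself and is named after its values were seen, was counted in Tomato- replicate 4 alone. On the side of oxidant production, Rac1, a GTPase that also activates NADPH oxidase, had 2920 ± 1176 and 2980 ± 984 CPM, Cyba, the membrane subunit p22phox, 252 ± 90.3 and 387 ± 615 CPM, and Rac2 117 ± 144 and 4.11 ± 9.20 CPM in 3 Tomato+ libraries and 1 Tomato- library. Cyba was at 0 in Tomato- replicates 1 and 2, and its Tomato- mean was led by 1456 CPM in replicate 5. Of the 15 genes in this group 4 had a count and 2 were tested, 1 in each direction.

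Among selenoprotein genes, which like Gpx1 and Gpx4 insert selenocysteine at a recoded stop codon, Selenof had 612 ± 286 and 375 ± 347 CPM, Selenow 479 ± 104 and 333 ± 291 CPM, and Selenok 86.3 ± 55.8 and 217 ± 230 CPM. Each was counted in all 5 Tomato+ and in 4 Tomato- libraries. The library at 0 was Tomato- replicate 2 for Selenof and Tomato- replicate 5 for Selenow and Selenok, both with under 1000 detected genes. None passed (edgeR adjusted p = 0.9996 for each), and 10 of 22 genes had a count. In the group of methionine sulfoxide reductases and disulfide isomerases, the sulfhydryl oxidase gene Qsox1 was counted in 7 libraries (174 ± 165 and 204 ± 290 CPM), P4hb, the main protein disulfide isomerase, in 3 (46.3 ± 102 and 89.7 ± 200 CPM) and Pdia6 in 1 Tomato+ library at 280.3 CPM. That group had 8 of 13 genes with a count and 1 tested.

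**Figure D4:**
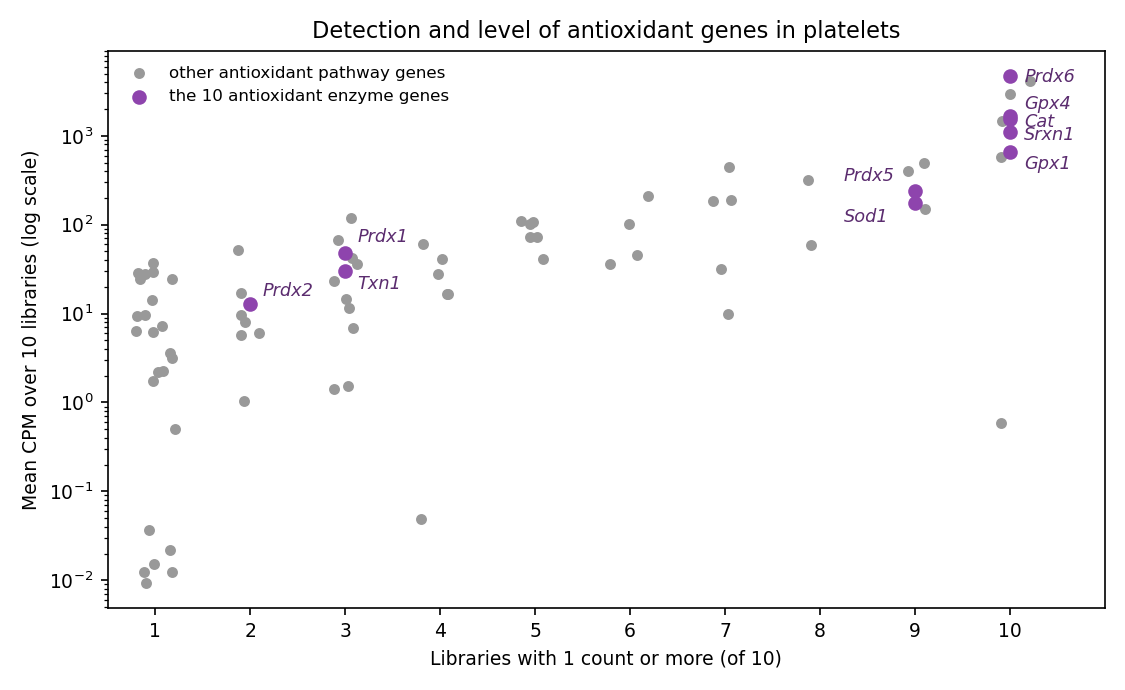
Mean CPM over the 10 libraries (log scale) against the number of libraries with a count, for the 10 antioxidant enzyme genes (purple, named) and the 72 other pathway genes with a count (grey, shifted sideways at random for visibility). Prdx6, Gpx4, Cat, Srxn1 and Gpx1 sit at 10 libraries together with 5 other genes, and Prdx1, Txn1 and Prdx2 sit at 2 or 3 libraries.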

How the data were processed

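The deposited values are unnormalized read counts by gene symbol, 1 table for the 10 libraries. Smart-seq+ gave the complementary DNA and Nextera XT the libraries, per the labels' protocols. Per the submitters' processing notes, Trimmomatic, FastQC, STAR and featureCounts were used with mm10 (no versions). Annotation, strand mode and treatment of multiply aligned reads are not given in the sources here, so reads of copies (Prdx6b, and the annotated pseudogenes Gpx4-ps2, Prdx2-rs3 and Prdx6-ps2) and of overlapping genes cannot be told apart. No molecular identifiers are described, so limits from counts cover counting error only.

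CPM used the sum of all rows. The groups were tested in edgeR 4.0.16 under R 4.3.3 by the quasi-likelihood method, with TMM factors, robust estimation, group as the sole term and the default filter (minimum count 10, minimum total 15), and Benjamini-Hochberg adjustment over all 1016 genes tested at 0.05. Each SE is the fold change divided by the root of F. The fitting code was also run on simulated counts, and its power to call a change is not given here. DESeq2 1.42.0 and limma 3.58.1 (voom) were alternatives, as were other scalings and filters, a replicate block and leaving out libraries. Coordinates and exon lengths came from GENCODE M21 (GRCm38, the assembly mm10 names), in which 21785 (93.0%) of 23420 symbols matched. Selenoprotein genes and a few others were matched through older symbols in RefSeq.

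The 10 genes, the 8 pathway lists and the markers were chosen with earlier results of these data known. Named by rule were the 10 genes, the 3 members of each pathway list with the highest mean CPM, the 2 of each marker list with the highest mean CPM, given where a result touches them, and the 2 closest profiles. Any other gene is marked as named after its values were seen, apart from marker genes named because they were at 0 and overlapping genes.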

Additional observations from a re-analysis of the deposited data

Results flagged for a closer look

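Of 21 sets of 5 libraries examined (each gene and the sum, in each group, where values differed), 9 had 1 library whose gap to its nearest neighbour was over 0.710 of the group's whole range (Dixon's critical value for 5 samples). Chance flags about 1 in 20 sets of regular values, and sets that are mostly 0 are not regular.

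Prdx6 stood out in 1 library of each group, at 5313 CPM in Tomato+ replicate 1 (3319 to 3741 CPM in the others) and at 8645 CPM in Tomato- replicate 2 (4374 to 5313 CPM in the others). Cat stood out in Tomato- replicate 1 at 3625 CPM, where the others had 700 to 1234 CPM, and this is the same library in which Prdx1 stood out at 350 CPM (0 to 87.4 CPM in the others). Sod1 stood out in Tomato+ replicate 3 at 535 CPM (115 to 176 CPM in the others), the Tomato+ library with the smallest total. Txn1 stood out at 68.2 CPM in Tomato+ replicate 2, where the others were at 0, and at 224 CPM in Tomato- replicate 5, where the others had 0 to 12.4 CPM. Prdx2 stood out at 2.44 CPM in Tomato+ replicate 5 and at 126 CPM in Tomato- replicate 4, with 0 in all others of each group.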

How the results depend on the processing

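None of the 10 genes was called in any of 19 alternatives in which they were tested. Over all genes, 0 were called in the main fit and in each of the 10 fits without 1 library (range 0 to 0), 1 with DESeq2 (Tug1), 1 with limma voom (Ctla2a) and 2 with limma voom and the replicate block (Rn45s and Fth1), all named after their values were seen; the cause was not tested. Of 131 alternative log2 fold changes of the 7 tested genes, 128 kept their direction. With limma voom the log2 fold changes were 2.39 for Gpx1, 3.04 for Prdx5, 2.41 for Sod1 and 0.67 for Cat. Gpx4 turned to -0.072 with scaling by total counts. Leaving out Tomato- replicates 1, 2 and 5 turned Gpx4 to -0.15 and Prdx5 to -0.066; the cause was not tested. The Tomato+ minus Tomato- difference of the summed CPM ran from -2188 to -1280 CPM over the fits without 1 library. It was -126 CPM without Prdx6 and -46.4 CPM with TMM effective library sizes in place of total counts, beside -1727 CPM as reported. Same-numbered libraries correlated at -0.022 to 0.25 in their deviations over 225 genes, and 1 of 5 correlated best with its own number. Weak correlations between libraries this variable cannot decide whether the replicate numbers pair them. With the replicate block edgeR called 0 genes, and the log2 fold change of Prdx5 was 2.37 in place of 1.13. Prdx5 and Sod1 could not be fitted on genes with 10 counts in every library. Counts in 1 to 3 libraries limit what can be said of Txn1, Prdx1 and Prdx2.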
